A study of Mus musculus with 8 samples.

Results

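The BCL2 family controls the mitochondrial pathway of apoptosis, and 10 of its genes were followed here in 4T1 tumors. They were chosen by name and found by gene symbol, 10 of 10, in a table of 54532 mouse genes. The set holds the anti-apoptotic genes Bcl2, Bcl2l1, Mcl1, and Bcl2l2, the effector genes Bax and Bak1, and the BH3-only genes Bbc3, Pmaip1, Bcl2l11, and Bid. 4T1 is a mouse triple-negative breast cancer line, here carrying firefly luciferase and grown under the skin of immunocompetent female BALB/cJ mice, 6 weeks old at injection. Control mice received saline, named as PBS in the treatment label. Treated mice received mAb-DXd/IMQ (HumCD276-Dxd/IMQ in the labels), a humanized CD276 antibody that carries the TOP1 inhibitor DXd and the TLR7/8 agonist IMQ. Each dose was 16 mg/kg, given on a schedule of 5 courses 4 days apart. Bulk RNA from 4 saline and 4 treated tumors taken at the end of the study was sequenced, and the level of each gene was compared between the groups.

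Library totals were 45019927 to 69582375 counts for saline and 34591912 to 51625237 counts for treated tumors. All 10 genes passed the filter on low counts, and the lowest count of any of them in a single tumor was 193, for Pmaip1. Levels are given in CPM, a gene's count scaled to the size of its library with edgeR's TMM factors. Epithelial markers of the tumor cells (Epcam, Krt8, Krt18, Krt19, and Cdh1) were counted in all 8 tumors, and their sum was 2336, 1682, 2260, and 2045 CPM in saline tumors 1 to 4. With treatment it was 3062, 2410, 1883, and 1906 CPM, which overlapped with saline. The labels gave no sequencing batch.

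Anti-apoptotic members hold the effectors BAX and BAK1 in check at the outer mitochondrial membrane. BH3-only proteins are switched on by stress, bind the anti-apoptotic members, and can also activate the effectors, which then open the membrane and let cytochrome c reach APAF1 and the caspases. DNA damage, such as TOP1 inhibitors cause, is known to act on this balance through p53 targets that include Bbc3, Pmaip1, and Bax.

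Of the 10 members, Bcl2 fell in treated tumors and the other 9 did not pass the test. To pass, a gene needed a Benjamini-Hochberg FDR under 0.05 over all genes tested with edgeR and an absolute log2 fold change above 0.58. Thus 1 of 10 members passed, beside 197 of 18511 tested genes, or 1.06%. Taken as treated minus saline, log2 fold changes were below 0 for Bcl2, Bcl2l11, Bcl2l1, and Mcl1 and above 0 for the other 6, and these directions were the same in 19 other ways of processing, each of the scalings included. The median over the members was 0.12, against 0.02 over all genes tested. An unadjusted p under 0.05 was reached by 6 members, 4 lower and 2 higher, and by 3503 of all tested genes. The count of 197 was 111 without saline tumor 2, 10 without saline tumor 3, and 11 without saline tumor 4. It was 76, 88, and 12 without treated tumors 2, 3, and 4. The count of 6 was 3 without saline tumor 2 or 3 or treated tumor 2 or 3, and 1 without saline tumor 4. With upper quartile factors or library size alone it was 3, Bcl2 lower and Bax and Bid higher, and with a correction for gene length it was 3, Bcl2, Bcl2l1, and Mcl1, all lower.

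**Figure D1:**
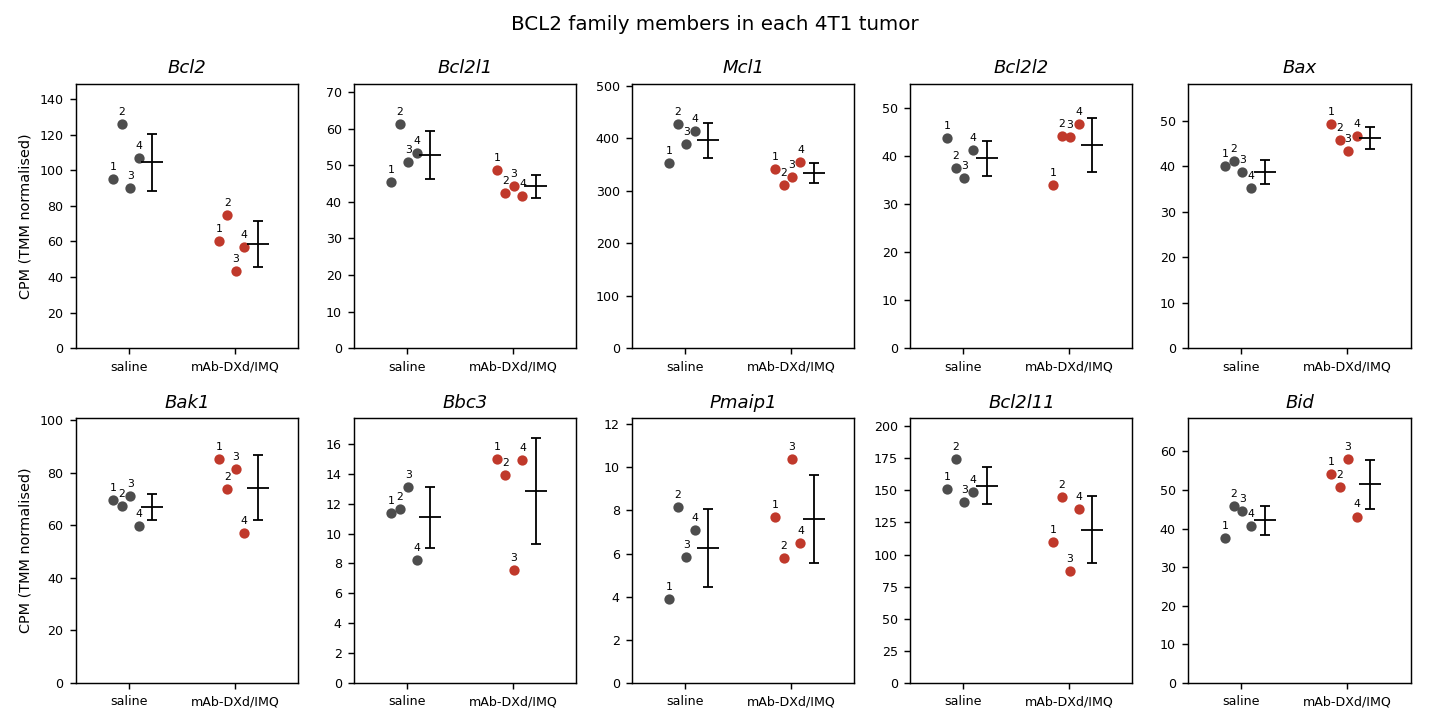
CPM (vertical axes, from 0) of each member in the 4 saline and the 4 mAb-DXd/IMQ tumors; points carry the replicate number, and the bar beside them is the mean with the SD. Bcl2 shows 4 treated tumors below all saline tumors, and Bax shows 4 above all of them.

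Bcl2, the founding anti-apoptotic member (ENSMUSG00000057329), lies on the minus strand of chromosome 1 from 106538178 to 106714274 in GRCm38. Its level was 95.1, 126, 90.1, and 106.6 CPM in saline tumors 1 to 4. Treated tumors 1 to 4 had 60.1, 74.7, 43.3, and 56.8 CPM. All 4 treated tumors lay below all 4 saline tumors, with the third treated tumor lowest and the second saline tumor highest. Such a separation downward was found for 1 of 10 members and for 7.10% of all genes tested. The means were 104.4 ± 15.9 CPM and 58.7 ± 12.9 CPM (SD, n = 4 each), and edgeR put the treated level at 0.56 times the saline level. On the log2 scale the difference was -0.83 with a standard error of 0.17 and an adjusted p of 0.0429. In bulk tumor RNA, fewer cells that express a gene and less of its RNA per cell cannot be told apart.

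The adjusted p of Bcl2 was close to its threshold. It lay between 0.000592 and 0.143 over 19 alternatives, 8 of which kept the gene past both thresholds, and the log2 fold change lay between -0.97 and -0.71. The call was lost without saline tumor 2, 3, or 4 (adjusted p of 0.0846, 0.0829, and 0.143 from edgeR) and without treated tumor 1, 3, or 4 (0.0608, 0.0628, and 0.121). Across the 18511 genes, which are not independent replicates, log2 fold change was lower for longer genes (Spearman's rho of -0.21), and Bcl2 is long, at 9157 bases. With a correction for gene length in each tumor, Bcl2 had a log2 fold change of -0.76 and an adjusted p of 0.0842.

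The other anti-apoptotic members did not pass. Mcl1 encodes a short-lived protein that restrains BAK1. Its level was 353, 427, 388, and 414 CPM in saline tumors 1 to 4. Treated tumors 1 to 4 had 341, 311, 326, and 355 CPM. The groups overlapped through the fourth treated tumor, which lay just above the lowest saline tumor. For Mcl1, edgeR gave a log2 fold change of -0.25, with a standard error of 0.11 and an adjusted p of 0.256. Bcl2l1 encodes the anti-apoptotic protein BCL-XL. Its level was 45.5, 61.3, 50.9, and 53.4 CPM in saline tumors 1 to 4. Treated tumors 1 to 4 had 48.7, 42.4, 44.3, and 41.5 CPM. The overlap came from the first tumor of each group, and the log2 fold change was again -0.25 (standard error 0.11, adjusted p of 0.259).

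Bcl2l2 encodes BCL-W, a further anti-apoptotic member. It stood at 43.8, 37.5, 35.5, and 41.2 CPM in saline tumors 1 to 4. With treatment, tumors 1 to 4 had 34.1, 44.3, 44.0, and 46.7 CPM. The first treated tumor was the lowest of all 8 and the other 3 were the highest. For this gene edgeR gave 0.10 on the log2 scale, with a standard error of 0.12 and an adjusted p of 0.721. The value was 0.15 without saline tumor 1, 0.05 without saline tumor 3, 0.18 without treated tumor 1, and 0.05 without treated tumor 4.

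The effector genes had fold changes above 0 that did not pass. Bax encodes BAX, which moves from the cytosol to mitochondria and forms pores. It stood at 39.9, 41.1, 38.8, and 35.1 CPM in saline tumors 1 to 4. With treatment, tumors 1 to 4 had 49.3, 45.8, 43.4, and 46.7 CPM. All 4 treated tumors lay above all 4 saline tumors, a separation upward found for 1 of 10 members and for 5.97% of all genes tested. For Bax, edgeR gave a log2 fold change of 0.26, with a standard error of 0.10 and an adjusted p of 0.189. With the correction for gene length the log2 fold change of Bax, 1576 bases long, was 0.13 (adjusted p of 0.608 from edgeR, and 0.117 to 0.739 over 19 alternatives). Bak1 encodes BAK1, an effector that sits in the mitochondrial membrane. It stood at 69.7, 67.5, 71.2, and 59.8 CPM in saline tumors 1 to 4. With treatment, tumors 1 to 4 had 85.4, 73.8, 81.3, and 57.2 CPM. The fourth treated tumor was the lowest of all 8, and the other 3 lay above every saline tumor. Here edgeR gave 0.15 on the log2 scale, with a standard error of 0.13 and an adjusted p of 0.576. The value was 0.08 without treated tumor 1, 0.27 without treated tumor 4, and 0.06 with the correction for gene length.

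Of the BH3-only genes, 0 of 4 passed with edgeR, with DESeq2, or with limma-voom, while Bcl2l11 and Bid had unadjusted p values under 0.05 from edgeR (0.039 and 0.0319). Bcl2l11 encodes BIM, which binds every major anti-apoptotic member. Saline tumors 1 to 4 had 151, 175, 141, and 148.5 CPM of Bcl2l11. Treated tumors 1 to 4 had 109.7, 145, 87.0, and 135 CPM. The second treated tumor lay among the saline tumors and the third treated tumor was lowest. For Bcl2l11, edgeR gave a log2 fold change of -0.37, with a standard error of 0.16 and an adjusted p of 0.236, and it was -0.24 without treated tumor 3. Bid encodes the protein that caspase 8 cuts to link death receptors to mitochondria. Saline tumors 1 to 4 had 37.5, 45.8, 44.5, and 40.7 CPM of Bid. In treated tumors 1 to 4 the level was 54.1, 50.8, 58.1, and 43.1 CPM. The fourth treated tumor lay within the saline range and the other 3 above it. Here the log2 fold change was 0.29 with a standard error of 0.12 and an adjusted p of 0.218 from edgeR.

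Bbc3 encodes PUMA, a target of p53. Saline tumors 1 to 4 had 11.4, 11.6, 13.1, and 8.27 CPM of Bbc3. In treated tumors 1 to 4 the level was 15.02, 13.9, 7.56, and 14.9 CPM. The third treated tumor was the lowest of all 8, while the other 3 were the highest. For Bbc3, edgeR gave a log2 fold change of 0.21, with a standard error of 0.23 and an adjusted p of 0.67. Without the third treated tumor it was 0.40 (adjusted p of 0.275, and 0.275 to 0.944 over 19 alternatives), and it was 0.10 without saline tumor 4, 0.13 without treated tumor 1, 0.14 without treated tumor 4, and 0.10 with the correction for gene length. Pmaip1 encodes NOXA, which binds MCL1. Saline tumors 1 to 4 had 3.91, 8.15, 5.86, and 7.09 CPM of Pmaip1. In treated tumors 1 to 4 the level was 7.69, 5.80, 10.4, and 6.49 CPM. The third treated tumor was highest and the first saline tumor lowest, and the groups overlapped. Here edgeR gave 0.28 on the log2 scale, with a standard error of 0.26 and an adjusted p of 0.604. The value was 0.11 without saline tumor 1, 0.43 without saline tumor 2, 0.09 without treated tumor 3, and 0.18 with the correction for gene length.

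**Figure D2:**
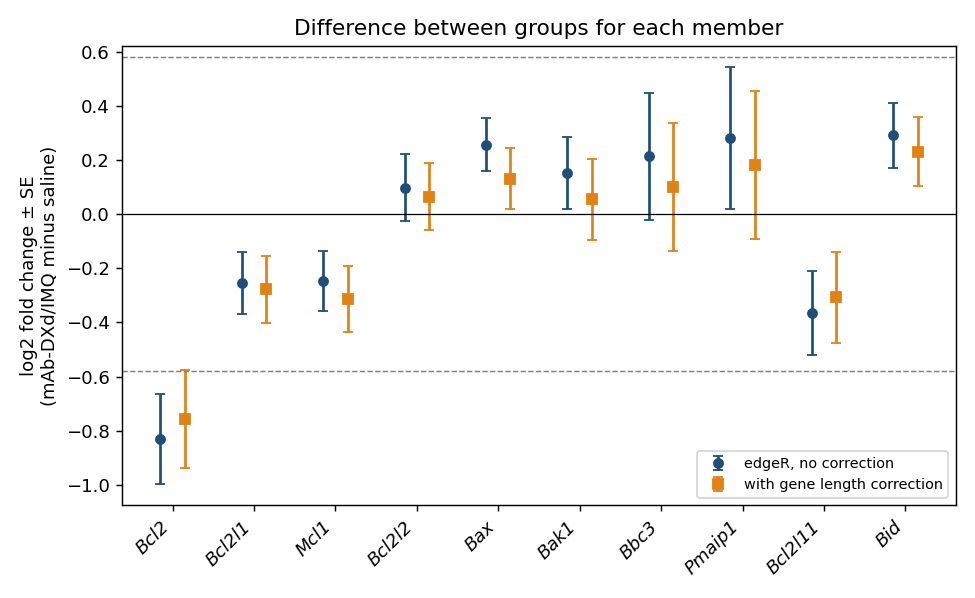
Log2 fold change (vertical axis, mAb-DXd/IMQ minus saline) of each member with its standard error, from edgeR without (circles) and with (squares) a correction for gene length; dashed lines mark 0.58 in each direction. Bcl2 lies past the lower line in both, at -0.83 and -0.76.

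Levels of different genes were compared per length, as TPM, in which counts are divided by gene length before they are scaled. Mcl1 had the highest level in both groups, at 329 ± 20.9 TPM (SD, n = 4) with saline and 274 ± 24.7 TPM (SD, n = 4) with treatment. On this scale the Mcl1 levels of the groups did not overlap, with 304 to 351 TPM against 248 to 300.4 TPM, unlike on the CPM scale. TPM carries no TMM factors, and the share of all genes that separate in TPM was not computed. The adjusted p of Mcl1 was 0.256 from edgeR. In saline tumors the order by mean TPM after Mcl1 was Bak1 (79.3), Bax (69.98), Bcl2l11 (54.5), Bid (33.7), Bcl2l1 (32.7), Bcl2 (32.4), Bcl2l2 (25.2), Bbc3 (14.9), and Pmaip1 (6.70). Neighbours in this order whose ranges over the 4 tumors overlapped were Bak1 and Bax, Bid and Bcl2l1, Bcl2l1 and Bcl2, and Bcl2 and Bcl2l2. Within single saline tumors Bak1 was above Bax in 4 of 4, whereas Bid was above Bcl2l1 in 2 of 4 and Bcl2l1 above Bcl2 in 2 of 4.

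In treated tumors the order by mean TPM after Mcl1 was Bak1 (86.9), Bax (82.3), Bcl2l11 (41.5), Bid (40.9), Bcl2l1 (27.1), Bcl2l2 (26.8), Bcl2 (17.9), Bbc3 (16.7), and Pmaip1 (8.16). Ranges overlapped between Bak1 and Bax, Bcl2l11 and Bid, and all neighbours from Bcl2l1 to Pmaip1. Bcl2, at 17.9 ± 3.64 TPM (SD, n = 4), was below Bcl2l2 in 4 of 4 treated tumors and above Bbc3 in 2 of 4. Bcl2l11 was above Bid in 4 of 4 saline tumors, without overlap, and in 2 of 4 treated tumors.

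**Figure D3:**
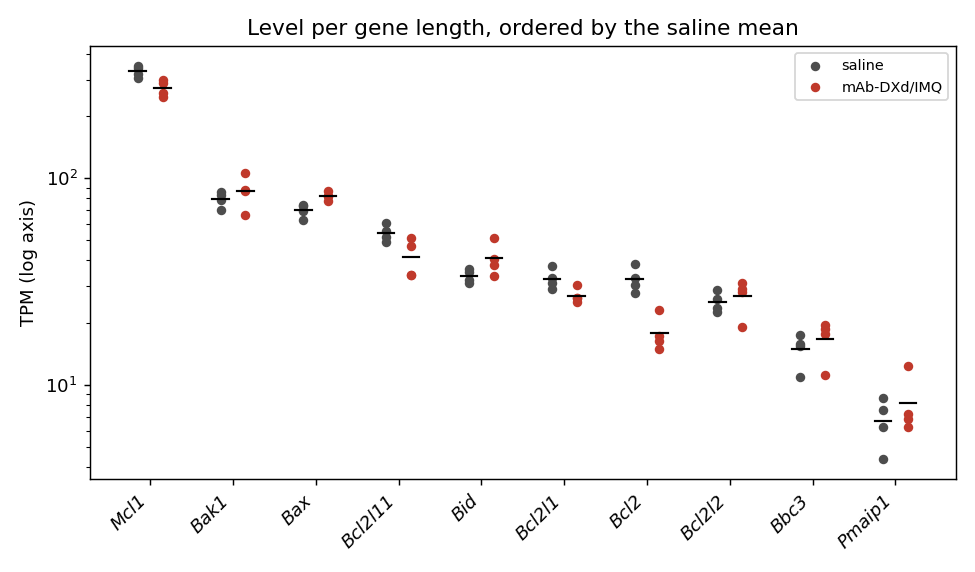
Level of each member in TPM (vertical log axis) in each tumor; short bars are group means, and genes are ordered by the saline mean. Mcl1 is highest in each of the 8 tumors, and Bcl2 stands near Bcl2l1 in saline tumors (32.4 and 32.7 TPM) and near Bbc3 in mAb-DXd/IMQ tumors (17.9 and 16.7 TPM).

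Within a tumor, shares and ratios of TPM do not depend on the scaling between libraries. Mcl1 made up 77.4% to 79.7% of the summed TPM of the 4 anti-apoptotic genes with saline and 76.9% to 80.2% with treatment. This sum leaves out Bcl2a1a, another anti-apoptotic gene (819 bases), which had a mean of 28.4 CPM with saline. The share of Bcl2 was 7.79%, 8.57%, 6.91%, and 7.58% in saline tumors 1 to 4. It was 5.26%, 6.90%, 3.95%, and 4.78% in treated tumors 1 to 4. The second treated tumor lay just below the lowest saline tumor and the other 3 lower. The ratio of Bax to Bcl2 in TPM was 2.44, 1.90, 2.50, and 1.92 in saline tumors 1 to 4. It was 4.76, 3.56, 5.83, and 4.78 in treated tumors 1 to 4. The groups did not overlap in this ratio, which joins 2 members chosen after their values were seen and was given no test. Bax and Bcl2 each separated the groups in TPM, in opposite directions, so their ratio had to separate them too. It sets a short gene (1576 bases) over a long gene (9157 bases) and was not corrected for gene length.

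On the CPM scale, Bcl2 and Bcl2l11 were both highest in the second tumor and lowest in the third tumor, in saline and in treated tumors alike. In TPM the lowest treated tumor was the third for Bcl2 (14.9 TPM) and the first for Bcl2l11 (33.95 TPM, against 34.1 TPM in the third). Both are long genes (9157 and 8029 bases), so the median of the 3278 tested genes over 7000 bases, a limit chosen after the data were seen, was set beside them. As a difference in log2 CPM from each gene's mean over the 8 tumors, this median was 0.08, 0.06, 0.05, and 0.06 in saline tumors 1 to 4. It was -0.16, -0.03, 0.03, and -0.06 in treated tumors 1 to 4. In the third treated tumor, where long genes stood at 0.03, Bcl2 stood at -0.84 and Bcl2l11 at -0.62. In the first treated tumor, where long genes were lowest, Bcl2 stood at -0.36 and Bcl2l11 at -0.29. The median log2 fold change was -0.11 over these long genes, and 64.3% of them were below 0, against 47.4% of all genes tested.

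**Figure D4:**
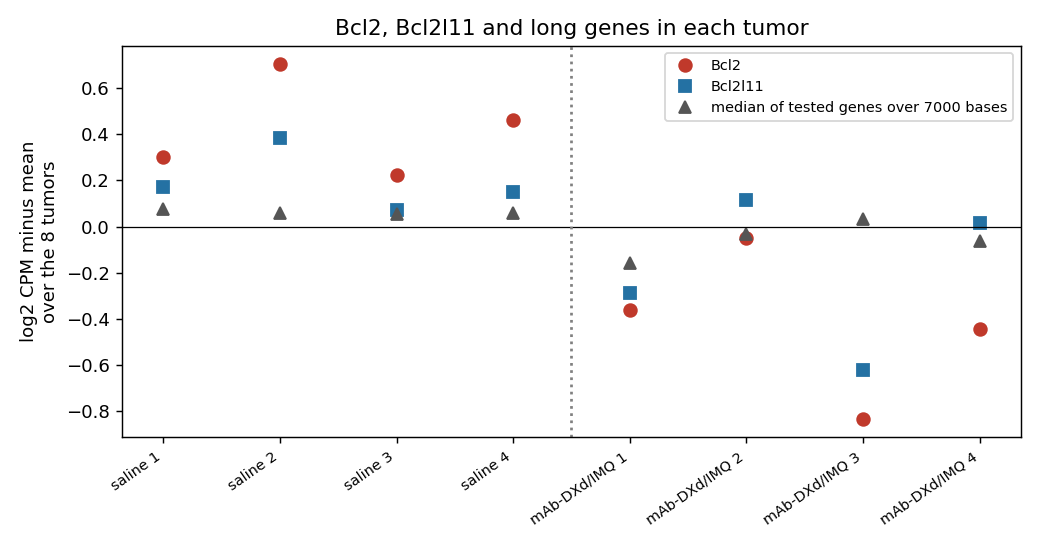
Log2 CPM minus the mean over the 8 tumors (vertical axis) for Bcl2, Bcl2l11, and the median of 3278 tested genes over 7000 bases, by tumor; the dotted line parts the groups. In mAb-DXd/IMQ tumor 3, Bcl2 (-0.84) and Bcl2l11 (-0.62) are lowest while the median of long genes is 0.03.

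The promoters of Bcl2 and Bcl2l11, which shared their highest and lowest tumors in CPM but not their lowest treated tumor in TPM, and of Bax, which separated the groups in the other direction, are shown as the 250 bases before the RefSeq start in GRCm38.p6. Each is written 5′ to 3′ on the strand of the gene, and RefSeq windows were found for 9 of the 10 members. Bcl2l11 had 2 windows, of which the first listed is printed. Capitals mark matches on either strand to 4 motifs. The GC box was searched as GGGCGG. The CCAAT box was searched by the letters of its name. The E-box was searched as CACGTG. The core of FOXO sites was searched as TGTTTAC.
Bcl2, chr1:106714291-106714540, minus strand: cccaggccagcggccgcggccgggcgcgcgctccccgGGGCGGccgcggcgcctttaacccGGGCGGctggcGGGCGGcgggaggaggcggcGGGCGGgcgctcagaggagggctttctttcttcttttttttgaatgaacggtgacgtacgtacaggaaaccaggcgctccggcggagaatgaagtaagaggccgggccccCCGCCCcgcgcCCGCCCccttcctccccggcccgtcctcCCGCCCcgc
Bcl2l11, chr2:128125788-128126037, plus strand: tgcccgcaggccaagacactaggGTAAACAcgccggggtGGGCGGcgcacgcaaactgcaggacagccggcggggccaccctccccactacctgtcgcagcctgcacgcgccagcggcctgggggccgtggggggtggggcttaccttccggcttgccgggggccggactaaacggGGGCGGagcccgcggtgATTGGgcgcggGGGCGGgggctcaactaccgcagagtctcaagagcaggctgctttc
Bax, chr7:45466899-45467148, minus strand: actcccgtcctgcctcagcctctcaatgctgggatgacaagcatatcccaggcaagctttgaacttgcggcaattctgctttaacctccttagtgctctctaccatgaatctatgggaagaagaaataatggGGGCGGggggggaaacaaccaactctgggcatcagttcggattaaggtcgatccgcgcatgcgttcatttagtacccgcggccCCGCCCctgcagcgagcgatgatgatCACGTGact

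The Bcl2 window held 7 GC boxes and none of the other motifs. The printed Bcl2l11 window held 3 GC boxes, 1 CCAAT box, and 1 FOXO core, and the other Bcl2l11 window held 2 GC boxes, 2 CCAAT boxes, and 0 FOXO cores. The Bax window held 2 GC boxes and 1 E-box. In windows of members not printed, GC boxes ranged from 0 (Bak1) to 7 (the third window of Bbc3, which did not pass). Among 32851 windows of the same length, 32.7% held a GC box, 33.8% a CCAAT box, 6.02% an E-box, and 3.17% a FOXO core. A match describes letters in the window only. The share of G and C was 74.8% for Bcl2, 72.0% for the printed window of Bcl2l11, and 54.0% for Bax.

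Several members share exon bases with another gene, and the labels do not state whether the libraries kept strand. Bid overlaps Bcl2l13, on the opposite strand, over 628 bases, or 17.7% of the exon bases of Bid, and the counts on Bcl2l13 were 92.7% of those on Bid. The values of Bid are therefore uncertain. Bak1 overlaps 2 gene models named Ggnbp1, also on the opposite strand, over 437 and 177 bases. The count table holds 1 gene of that name, under the identifier of the first model, with 6.42% of the counts of Bak1. The antisense gene D630008O14Rik overlaps Bcl2 over 558 bases and had 31 counts in all tumors together, against 32990 for Bcl2. Bcl2l2 and Bax each overlap a gene model on their own strand (Gm20521 and Gm45808) that had 0 counts in all tumors.

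Among other genes of the pathway, taken from lists, 1 passed the thresholds, Usp9x. Over all 18511 tested genes, 1.06% passed and 3503 had an unadjusted p under 0.05 from edgeR. Of the other BCL2 family genes, 11 of 13 were tested and 0 passed with edgeR or limma-voom, 4 being above 0 and 7 below, with a median log2 fold change of -0.10. Bcl2l10 had 4 counts in all tumors together and Hrk had 0. An unadjusted p under 0.05 was reached by 1 gene, Bcl2l15, which passed with DESeq2 and was named after its values were seen. Bcl2l15 was near the detection limit, at 0.117 ± 0.0201 CPM with saline and 0.465 ± 0.121 CPM with treatment (SD, n = 4 each). For Bcl2l15, edgeR gave a log2 fold change of 1.96, with a standard error of 0.46 and an adjusted p of 0.0591. Bcl2a1a, an anti-apoptotic gene of leukocytes, had 28.4 ± 12.8 CPM and 20.6 ± 3.97 CPM, and its counts are uncertain because Bcl2a1b and Bcl2a1d are near-identical copies. Bmf, a BH3-only gene, had 38.9 ± 13.3 CPM and 28.4 ± 10.3 CPM. The log2 fold changes of Bcl2a1a and Bmf were -0.46 and -0.45 (adjusted p of 0.439 and 0.417 from edgeR). Without saline tumor 2 they were -0.18 and -0.19, Bcl2a1a was -0.71 without saline tumor 1, and Bmf was -0.26 without treated tumor 3.

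Downstream of the family, 13 of 13 genes of the apoptosome and caspases were tested and 0 passed with edgeR, DESeq2, or limma-voom, with 0 at an unadjusted p under 0.05. Their median log2 fold change was -0.04, with 6 above 0 and 7 below. Casp9, the caspase of the apoptosome, had 20.4 ± 1.92 CPM with saline and 16.8 ± 1.76 CPM with treatment (log2 fold change -0.28, adjusted p of 0.279 from edgeR). For Casp9 all 4 treated tumors lay below the saline tumors, as for 7.10% of all genes tested. Casp6, an executioner caspase, had 43.5 ± 2.08 CPM and 37.3 ± 10.5 CPM (log2 fold change -0.22, adjusted p of 0.527), and the log2 fold change was -0.41 without treated tumor 1 and -0.08 without treated tumor 3. Of the inhibitors of apoptosis, 7 of 7 were tested and 0 passed with any of these tools, with 2 at an unadjusted p under 0.05, Birc5 and Birc6, the latter named after its values were seen. Their median was -0.07, with 3 above 0 and 4 below. Birc5, which encodes survivin and is known for its role in cell division, had 60.8 ± 15.6 CPM and 89.7 ± 8.26 CPM. All 4 treated tumors lay above all saline tumors, as for 5.97% of all genes tested. The log2 fold change of Birc5 was 0.56, with a standard error of 0.17 and an adjusted p of 0.117 from edgeR. Birc3 had 59.3 ± 4.204 CPM and 49.2 ± 8.42 CPM (log2 fold change -0.27, adjusted p of 0.292).

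In the death receptor pathway, 11 of 11 genes were tested and 0 passed with edgeR, DESeq2, or limma-voom, with 3 at an unadjusted p under 0.05. These were Tnf, Fasl, and Tnfrsf10b, the last 2 named after their values were seen. Fasl, the ligand of Fas, had 3.83 ± 0.565 CPM and 2.28 ± 0.647 CPM (log2 fold change -0.75, adjusted p of 0.157 from edgeR). Tnfrsf10b, the receptor of TRAIL, had 38.0 ± 1.596 CPM and 49.6 ± 3.53 CPM (log2 fold change 0.38, adjusted p of 0.0702 from edgeR). All 4 treated tumors lay above all saline tumors for this gene, as for 5.97% of all genes tested. The median log2 fold change was -0.17, with 4 above 0 and 7 below. Tnfsf10, the ligand TRAIL, had 128.8 ± 89.9 CPM with saline and 78.0 ± 18.4 CPM with treatment (log2 fold change -0.72, adjusted p of 0.351 from edgeR). Its first saline tumor had 257 CPM, and without that tumor the log2 fold change was -0.15. Tnf had 3.82 ± 1.16 CPM and 6.61 ± 3.305 CPM (log2 fold change 0.79, adjusted p of 0.234). The third treated tumor had 11.5 CPM of Tnf, and without it the log2 fold change was 0.38.

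Among regulators of the members, 11 of 12 genes were tested, Trp73 being too low with 94 counts in all, and Usp9x passed. The median log2 fold change was 0.07, with 7 above 0 and 4 below. An unadjusted p under 0.05 was reached by 3, Usp9x, Foxo3, and Huwe1, all lower in the 4 treated tumors than in any saline tumor, and Foxo3 and Huwe1 were named after their values were seen. Such a p was reached by 3503 of 18511 tested genes, and such a separation was found for 7.10%. Foxo3 and Huwe1 had adjusted p of 0.174 and 0.222 from edgeR. Usp9x encodes a deubiquitinase that stabilizes MCL1 protein. Its level was 179, 175, 167, and 173 CPM in saline tumors 1 to 4. Treated tumors 1 to 4 had 108.4, 115, 106.8, and 90.3 CPM. The groups did not overlap, and the spread within each was small beside the difference between them. Usp9x fell by 0.72 on the log2 scale, with a standard error of 0.10 and an adjusted p of 0.0201 from edgeR. Its length is 15051 bases, and with the correction for gene length the log2 fold change was -0.61 (adjusted p of 0.0535, and 1.2e-07 to 0.13 over 19 alternatives). With length and GC content corrected together, an alternative chosen after seeing the data, it was -0.57 (adjusted p of 0.0731). Among the fits that each leave out a tumor, the call was lost without saline tumor 3 (adjusted p of 0.0657), saline tumor 4 (0.0846), or treated tumor 4 (0.0694). Ddit3, which encodes the stress factor CHOP, had 11.9 ± 5.42 CPM and 17.1 ± 4.71 CPM (log2 fold change 0.52, adjusted p of 0.372), and the log2 fold change was 0.89 without saline tumor 1.

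**Figure D5:**
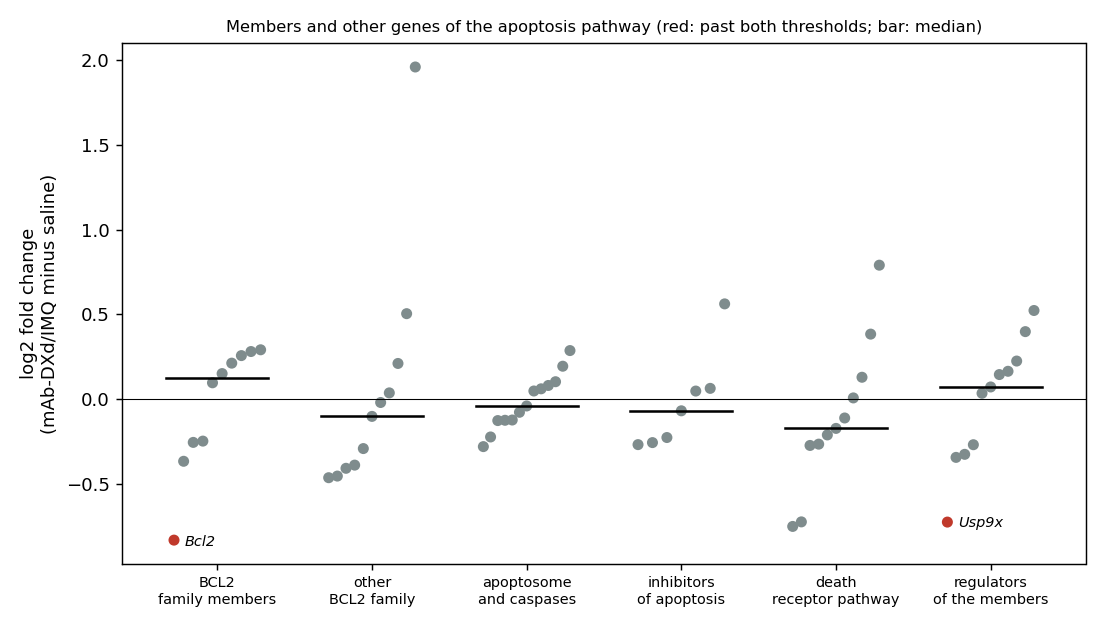
Log2 fold change (vertical axis, mAb-DXd/IMQ minus saline) of the 10 members and of the tested genes of 5 other lists; each point is a gene, bars are medians, and red marks genes past both thresholds. Bcl2 (-0.83) and Usp9x (-0.72) are the 2 genes in red, and the highest point is Bcl2l15 (1.96).

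The genes most like Mcl1 and Bcl2 across the 8 tumors were found by Pearson's r of log2 CPM among 10758 other genes, a measure that includes the difference between the groups. For Mcl1 they were Lgals8 (r = 0.967), Ccdc50 (0.962), and Csgalnact2 (0.959). For Bcl2 they were Dnajb14 (r = 0.993), Tbck (0.985), and Zfp703 (0.981), with log2 fold changes of -0.45, -0.37, and -0.57. Of these 6 genes, 0 passed both thresholds with edgeR, DESeq2, or limma-voom, while 5 had an unadjusted p under 0.05 from edgeR, all except Lgals8. The genes were picked for a pattern that includes the group difference, so this count is no separate evidence. Among all 18511 tested genes, 3503 had such a p.

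Bcl2 is known for its role in T cell survival, and the T cell markers Cd3d, Cd3e, Cd3g, Cd4, and Cd8a were lower, 5 of 5, of which Cd4 and Cd8a passed with edgeR and, with DESeq2, Cd3d and Cd3e as well. Their summed level was 52.6, 79.8, 78.4, and 66.8 CPM in saline tumors 1 to 4. With treatment it was 40.9, 34.6, 21.6, and 32.6 CPM. The groups did not overlap in this sum, Cd8a was the most abundant gene, and no marker was at 0. Among the fits that each leave out a tumor, the calls of Cd4 and Cd8a were lost without saline tumor 3 (adjusted p of 0.0657 for both), saline tumor 4 (0.0846), or treated tumor 4 (0.0694). Cd4 had a log2 fold change of -1.91 and Cd8a of -1.22, both at an adjusted p of 0.0201 from edgeR. Within the groups the order of tumors was partly shared with that of Bcl2 in CPM. The second saline tumor was highest of the saline tumors in both, and the third treated tumor was lowest in both. The first saline tumor was lowest of its group in the sum and the third saline tumor in Bcl2. Among treated tumors the first was highest in the sum and the second in Bcl2. The part of T cells in the Bcl2 result was not tested.

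Of the 5 neutrophil markers, 4 were tested, 4 were below 0, and Csf3r passed with an adjusted p of 0.0402 from edgeR, with S100a8 and S100a9 passing as well with DESeq2. Csf3r kept its call in 7 of 19 alternatives, over which its adjusted p lay between 0.000534 and 0.134. It was lost, among others, without saline tumor 1, 2, 3, or 4 (adjusted p of 0.0625, 0.0715, 0.0754, and 0.134), without treated tumor 2, 3, or 4 (0.0749, 0.0587, and 0.0935), with upper quartile factors (0.0501), and with library size alone (0.0601). The neutrophil sum was 223, 84.1, 92.2, and 125 CPM in saline tumors 1 to 4. It was 32.7, 49.3, 50.9, and 67.0 CPM in treated tumors 1 to 4. The groups did not overlap, S100a9 was the most abundant, and Ly6g had 0 counts in 2 tumors.

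Of the macrophage markers, 4 of 4 were below 0 and 0 passed with edgeR or limma-voom, with 1 at an unadjusted p under 0.05, Mrc1, which passed with DESeq2 and was named after its values were seen. Their sum was 283, 1067, 503, and 627 CPM in saline tumors 1 to 4. It was 389, 342, 420, and 291 CPM in treated tumors 1 to 4. The groups overlapped in this sum through the first saline tumor, Csf1r was the most abundant, and no marker was at 0. Mrc1 had 103.7, 360.4, 135.2, and 189.4 CPM in saline tumors 1 to 4. It had 75.72, 82.78, 71.97, and 75.69 CPM in treated tumors 1 to 4, without overlap (log2 fold change -1.365, adjusted p of 0.0574 from edgeR). A separation downward was found for 7.10% of all genes tested. The second saline tumor was highest in the macrophage sum, as it was for Bcl2, Bcl2l11, Mcl1, and Bcl2l1 in CPM. Among treated tumors the third was highest in the sum but lowest for Bcl2 and Bcl2l11. Mcl1 was highest in the fourth treated tumor and Bcl2l1 in the first. The parts of neutrophils and macrophages in the values of the members were not tested.

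The leukocyte gene Ptprc had 155 ± 22.9 CPM with saline and 139.5 ± 35.5 CPM with treatment (SD, n = 4 each). B cell markers were near the floor, with sums of 1.86 ± 0.81 CPM and 0.94 ± 0.145 CPM, and NK cell markers summed to 20.7 ± 5.81 CPM and 18.7 ± 1.74 CPM. Endothelial markers summed to 124 ± 41.9 CPM and 153 ± 13.7 CPM, and fibroblast markers to 4064 ± 1620 CPM and 4058 ± 1660 CPM. Skeletal muscle markers summed to 231 ± 157 CPM and 185 ± 99.2 CPM, and adipocyte markers to 5.37 ± 3.99 CPM and 3.56 ± 2.17 CPM. Epidermal markers summed to 119 ± 70.3 CPM and 256 ± 165 CPM, with 489 CPM in the second treated tumor. Apart from the B cell sum, which was lower in all 4 treated tumors than in any saline tumor, these sums overlapped between the groups. The fibroblast sum was led by Col1a1, and single markers could differ from it. An unadjusted p under 0.05 was reached by 1 fibroblast marker, Pdgfra, and 1 NK cell marker, Klrk1, both lower and named after their values were seen, and 0 markers of either list passed with edgeR, DESeq2, or limma-voom. Pdgfra had 86.4, 105.8, 87.9, and 103.4 CPM in saline tumors 1 to 4 and 61.2, 75.7, 62.7, and 75.6 CPM in treated tumors 1 to 4, without overlap (log2 fold change -0.48, adjusted p of 0.0679 from edgeR). Again, 7.10% of all genes tested separated downward. The part of fibroblasts in the values of the members was not tested. Cd79b was the most abundant B cell marker and passed with DESeq2 but not with edgeR or limma-voom, Ms4a1 had 0 counts in 1 tumor, and the part of B cells in the values of the members was not tested.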

How the data were processed

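The authors deposited raw counts of reads per gene for 8 tumors, 4 per group, with a length for each gene. The submitters' processing notes name HISAT2, HISAT, and TopHat2, without versions or roles, and the build mm39. The coordinates in the table equal GENCODE M21 (GRCm38) in start and end for 53499 of 54409 shared genes, so GRCm38 is used here. Strandedness is not given in the sources used here.

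The software was R (4.3.3) with edgeR (4.0.16), limma (3.58.1), and DESeq2 (1.42.0). Genes were kept by filterByExpr (minimum count 10, minimum total 15) and scaled by TMM. The groups were compared with the quasi-likelihood F-test of edgeR, with no covariate and with Benjamini-Hochberg adjustment over all 18511 genes. Standard errors were derived from the F statistic and are approximate. TPM was computed from the counts and the deposited lengths. A floor of 3 counts was 0.0431 to 0.0867 CPM and covers counting error only. Within a group every pair of libraries differed by more than sampling noise (chi-square per degree of freedom at least 34.5). The edgeR, DESeq2, limma-voom, and length-corrected fits were tested on simulated data. The simulation had the same spread for every gene and no length trend, so it did not test whether the correction removes such a trend. Promoter windows came from RefSeq (GRCm38.p6).

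The members and lists were chosen with earlier results of these data known. Named were the 10 members, from each other list the genes past the thresholds and the 2 largest absolute log2 fold changes at a mean of at least 5 CPM, and the 3 genes most like Mcl1 and like Bcl2 at a mean of at least 8 CPM. Alternatives covered scaling, filter, test, fold limit, replicate block, gene length, and leaving out each tumor. A correction for length and GC content together, and the alternatives for named genes other than members, were chosen after seeing the data.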

Additional observations from a re-analysis of the deposited data

Results flagged for a closer look

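Groups of 4 tumors were checked for a tumor far from the others, over the members and the marker sums, by the gap to the nearest tumor as a share of the group's range. Such a tumor was found in 2 of 44 groups, and chance gives about 1 in 20, or 2.2. For Bbc3 in treated tumors this share was 0.856, with 7.56 CPM in the third tumor and 13.9 to 15.02 CPM in the others. For the leukocyte gene Ptprc in treated tumors it was 0.909, with 193 CPM in the third tumor and 119 to 125.5 CPM in the others.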

How the results depend on the processing

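Bcl2 kept its direction in each of 19 alternatives and its call in 8, and the other 9 members kept their directions and passed in 0 of 19. Against 197 genes past the thresholds, 358 passed when every gene with a count was kept and 787 with DESeq2, with 1 member in each. With the correction for gene length 116 genes and 0 members passed in edgeR, and with length and GC content, chosen after seeing the data, 120 genes and 0 members, with 3 members at an unadjusted p under 0.05 in each. DESeq2 and limma-voom, run without these corrections, each passed 1 member. Upper quartile factors gave 145 genes higher and 73 lower, against 101 and 96. Leaving out 1 tumor gave 10 to 203 genes and 0 to 1 members. The cause was not tested. The lowest member, Pmaip1, had 193 to 485 counts per tumor.

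Same-numbered tumors came from different mice, their deviations correlated at -0.195, -0.0522, 0.113, and -0.0788, and 1 of 8 tumors correlated best with its own number, so the numbers were not taken as pairs. With a replicate block, 14 genes and 0 members passed in edgeR, with 3 members at an unadjusted p under 0.05, and the difference of Bcl2 was -0.85 on the log2 scale, at an adjusted p of 0.0661. Over the 3 fits with a block, the calls of Usp9x (adjusted p of 0.0831 to 0.13), Cd4 (0.0695 to 0.079), Cd8a (0.0815 to 0.0889), and Csf3r (0.117 to 0.129) were lost in edgeR, in each with its direction kept. The block gave 14 genes and 0 members with the length correction too, and again with length and GC content.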
